A study of Homo sapiens with 18 samples.

Results

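Nucleosomes can carry variant histones in place of the standard ones, and 8 genes for such variants that lie outside the histone gene clusters were followed: H2AZ1, H2AZ2, H2AX, H2AJ, H3-3A, H3-3B, MACROH2A1 and MACROH2A2. They were chosen by name, and each was found once by its Ensembl identifier among the 58825 genes counted. All 8 passed the filter on low counts in every fit. The counts come from bulk RNA of OVCAR-3, an established line of high-grade serous ovarian carcinoma, grown with either of 2 inhibitors of the BET bromodomain proteins. Monolayer cultures in stripped medium received the vehicle DMSO, i-BET151 or i-BET858, each inhibitor at 1 µM, and were harvested after 4 or 24 h. There were 3 biological replicates in each of these 6 groups, all from 1 cell line.

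Clustered core histone genes are expressed mainly in S phase, and most of their mRNAs end in a stem-loop in place of a poly-A tail. Variant genes outside the clusters are mostly transcribed through the cell cycle as polyadenylated mRNAs, and their products enter chromatin independently of replication. H2A.Z, made from H2AZ1 and H2AZ2, is placed at promoters and enhancers by the SRCAP and p400/TIP60 complexes. H2A.X is phosphorylated beside DNA double-strand breaks, where the modified form is called γH2A.X. H2A.J differs from standard H2A mainly at its C-terminal end and is known to accumulate in senescent cells. H3.3, a single protein made from both H3-3A and H3-3B, is deposited by the HIRA and DAXX/ATRX chaperones. MacroH2A histones carry a large macro domain and are associated with repressed chromatin.

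The libraries held 27323969 to 46299994 counts, and the 8 genes took 0.246 to 0.511% of them. Levels are given as CPM, the share of a library's counts scaled by edgeR's TMM factors over all 18 libraries. The replicate 3 libraries had a count for 17817 to 20642 genes, against 23674 to 24947 in replicates 1 and 2. The 7 markers of the line (PAX8, WT1, MUC16, EPCAM, KRT7, KRT8 and KRT18) were all present, the lowest single value being 54.2 CPM for MUC16. Of the markers of other cells, PTPRC (leukocytes) reached at most 0.556 CPM, PECAM1 and VWF (endothelium) 0.871 and 4.88 CPM, COL1A2 (fibroblasts) 3.62 CPM and COL1A1 46.7 CPM, the last with a lowest value of 21.1 CPM. In bulk RNA, fewer cells that express a gene and less of its RNA per cell cannot be told apart.

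The 8 genes lie on 8 chromosomes (GRCh38). H2AZ1 (ENSG00000164032.12, chr4:99948086-99950355, minus strand) and H2AZ2 (ENSG00000105968.18, chr7:44826791-44848087, minus) have 5 exons each in their canonical transcripts. H2AX (ENSG00000188486.3, chr11:119093874-119095465, minus) and H2AJ (ENSG00000246705.4, chr12:14774405-14778002, plus) have 1 exon each, as clustered histone genes do. H3-3A (ENSG00000163041.10, chr1:226061851-226072019, plus) and H3-3B (ENSG00000132475.10, chr17:75776434-75785893, minus) have 4 exons each. MACROH2A1 (ENSG00000113648.16, chr5:135334381-135399914, minus) and MACROH2A2 (ENSG00000099284.14, chr10:70052544-70112282, plus) have 9 exons each.

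The start regions of 4 of the genes are shown because H2AX, H2AJ and H3-3B at least doubled with i-BET858 at 4 h while MACROH2A2 fell at 24 h. Each line gives the 250 bases before the annotated start (RefSeq, GRCh38.p14), 5′ to 3′ on the strand of the gene, and capitals mark CCAAT or its reverse complement ATTGG, the letters bound by the factor NF-Y, and TATAAA or its reverse complement TTTATA.
H2AX, chr11:119095466-119095715, minus strand: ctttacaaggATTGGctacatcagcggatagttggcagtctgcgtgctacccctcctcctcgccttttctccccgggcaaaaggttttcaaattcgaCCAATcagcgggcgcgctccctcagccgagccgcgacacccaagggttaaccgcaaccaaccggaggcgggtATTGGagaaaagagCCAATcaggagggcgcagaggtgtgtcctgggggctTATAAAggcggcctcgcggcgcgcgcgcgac
H2AJ, chr12:14774155-14774404, plus strand: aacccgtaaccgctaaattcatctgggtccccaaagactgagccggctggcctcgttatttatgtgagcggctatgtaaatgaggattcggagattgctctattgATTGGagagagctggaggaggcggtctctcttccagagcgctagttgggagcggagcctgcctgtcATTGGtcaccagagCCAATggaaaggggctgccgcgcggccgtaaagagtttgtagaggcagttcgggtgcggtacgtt
H3-3B, chr17:75779780-75780029, minus strand: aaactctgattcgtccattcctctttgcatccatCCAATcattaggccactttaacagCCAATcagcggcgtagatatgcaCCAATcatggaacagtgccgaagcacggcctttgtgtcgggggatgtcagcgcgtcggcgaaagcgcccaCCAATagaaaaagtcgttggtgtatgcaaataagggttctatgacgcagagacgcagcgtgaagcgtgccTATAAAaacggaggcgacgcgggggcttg
MACROH2A2, chr10:70052596-70052845, plus strand: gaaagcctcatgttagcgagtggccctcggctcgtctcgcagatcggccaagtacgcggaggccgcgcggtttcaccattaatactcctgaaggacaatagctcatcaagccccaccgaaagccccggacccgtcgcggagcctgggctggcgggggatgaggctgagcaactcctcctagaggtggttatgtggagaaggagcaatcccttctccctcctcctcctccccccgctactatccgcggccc
In windows of 300 bases (250 before and 50 after a start), CCAAT or ATTGG occurred 4 times in H2AX, H3-3B and H2AZ2 and 3 times in H2AJ and H2AZ1. By comparison, 34.6% of 35116 such windows of all genes held at least 1 match, 10.8% at least 2 and 3.26% at least 3. H3-3A has 4 annotated windows, with 1, 1, 0 and 1 matches. MACROH2A1 has 2 windows, with 0 and 2 matches, and MACROH2A2 had none. TATAAA or TTTATA, present in 11.5% of all windows, occurred once each in H2AX (31 bases before the start), H2AZ1 (31 bases) and H3-3B (29 bases), and overlapped no CCAAT match there. These are matches of letters and not measured binding sites.

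H2AX was the 1 gene of the 8 whose annotated transcripts held the letters of the histone mRNA stem-loop, searched as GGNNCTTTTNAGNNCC on the transcript strand. The match lay at base 553 of its single exon of 1592 bases, chr11:119094898-119094913 on the minus strand (GRCh38), and capitals mark the 6 bases of each arm that pair with each other.
H2AX stem-loop: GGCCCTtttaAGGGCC
This pattern was present in 127 of 62700 genes of GENCODE 44 (0.203%), 71 of which have a histone symbol. Transcripts that end at a stem-loop carry no poly-A tail, and selection of poly-A RNA leaves such transcripts out.

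Levels of different genes were compared per kilobase of the Ensembl canonical transcript. In DMSO at 4 h, H2AZ1 (427 ± 33.8 CPM per kb, mean ± SD, n = 3) and H3-3B (413 ± 29.4) came first, and their libraries overlapped. H3-3A (293 ± 23.1), H2AX (152 ± 8.56) and MACROH2A1 (98.9 ± 3.67) followed, each apart from its neighbours. H2AZ2 (48.8 ± 1.52), H2AJ (46.2 ± 3.61) and MACROH2A2 (45.3 ± 4.98) came last with overlapping values. After 24 h with i-BET858 the order had become H3-3B (981 ± 37.1), H3-3A (673 ± 61.9), H2AZ1 (576 ± 51.0), H2AX (396 ± 33.8), H2AJ (312 ± 34.2), MACROH2A1 (84.9 ± 2.45), H2AZ2 (75.3 ± 5.03) and MACROH2A2 (12.0 ± 0.856), with no overlap between neighbours. The order depends on the length taken. Per kilobase of all annotated exons, the means in DMSO at 4 h were 182 for H3-3B, 163 for H2AZ1 and 152 for H2AX, ahead of 82.1 for H3-3A.

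With DMSO alone, none of the 8 genes was called between 4 and 24 h by edgeR (adjusted p under 0.05, Benjamini-Hochberg over 18154 genes tested) or by DESeq2. By edgeR, 2 had an unadjusted p under 0.05. H2AX read 0.36 higher at 24 h on the log2 scale (edgeR adjusted p = 0.267) and H2AJ 0.34 higher (edgeR adjusted p = 0.292). Over all genes 7 were called by edgeR, or 0.0386%. With the replicate number as a block H2AX was called (log2 fold change 0.35, edgeR adjusted p = 0.0473), as were 2.07% of all genes.

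After 4 h, i-BET858 raised 6 of the 8 genes and lowered none (edgeR, adjusted p under 0.05), where 30.8% of the 17192 genes tested were called, 14.5% higher and 16.3% lower. The 3 genes that also doubled were H2AX, H2AJ and H3-3B, where 14.1% of all genes changed as much in either direction. i-BET151 raised 5 of the 8 and lowered none, where 16.2% of all genes were called with 7.81% higher and 8.43% lower. With the replicate block, H2AZ2 was called as higher and MACROH2A2 as lower with both inhibitors too, which gave 8 and 7 called genes, where 45.4% and 32.7% of all genes were called. No gene of the 8 was called as at least 2-fold changed with i-BET151, where 7.1% of all genes were. Treated and DMSO libraries did not overlap for 7 of the 8 genes (i-BET858) and for all 8 (i-BET151), against 44.6% and 36.7% of all genes. The 8 genes had a median log2 fold change of 0.76 (i-BET858) and 0.47 (i-BET151), beside 0.02 and 0.01 over all genes. Both inhibitors were set against the same DMSO libraries, so their results at one time point are not independent. Scaling by total library size in place of TMM moved the median of all genes with i-BET858 at 4 h from 0.02 to −0.14 and the share of higher genes among the calls from 47.1 to 32%, and the log2 fold changes of the 8 genes moved down with it.

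After 24 h, 7 of the 8 genes were called with i-BET858, 5 higher and 2 lower, where 41.7% of 17157 genes were called, 20.5% higher and 21.3% lower. Likewise, 7 were called with i-BET151, 5 higher and 2 lower, where 33.8% of all genes were called, 17.2% higher and 16.6% lower. The 2 genes that fell were MACROH2A1 and MACROH2A2, and H2AZ1 was the gene not called. Changes of at least 2-fold were found for H2AJ, H3-3A, H3-3B and MACROH2A2 with i-BET858 and for H2AJ and MACROH2A2 with i-BET151, where 18.8% and 13.7% of all genes changed as much. Groups did not overlap for 8 of the 8 genes (i-BET858) and 7 (i-BET151), against 55.1% and 48.9% of all genes. The plot of fold changes by gene shows all of these estimates.

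**Figure D1:**
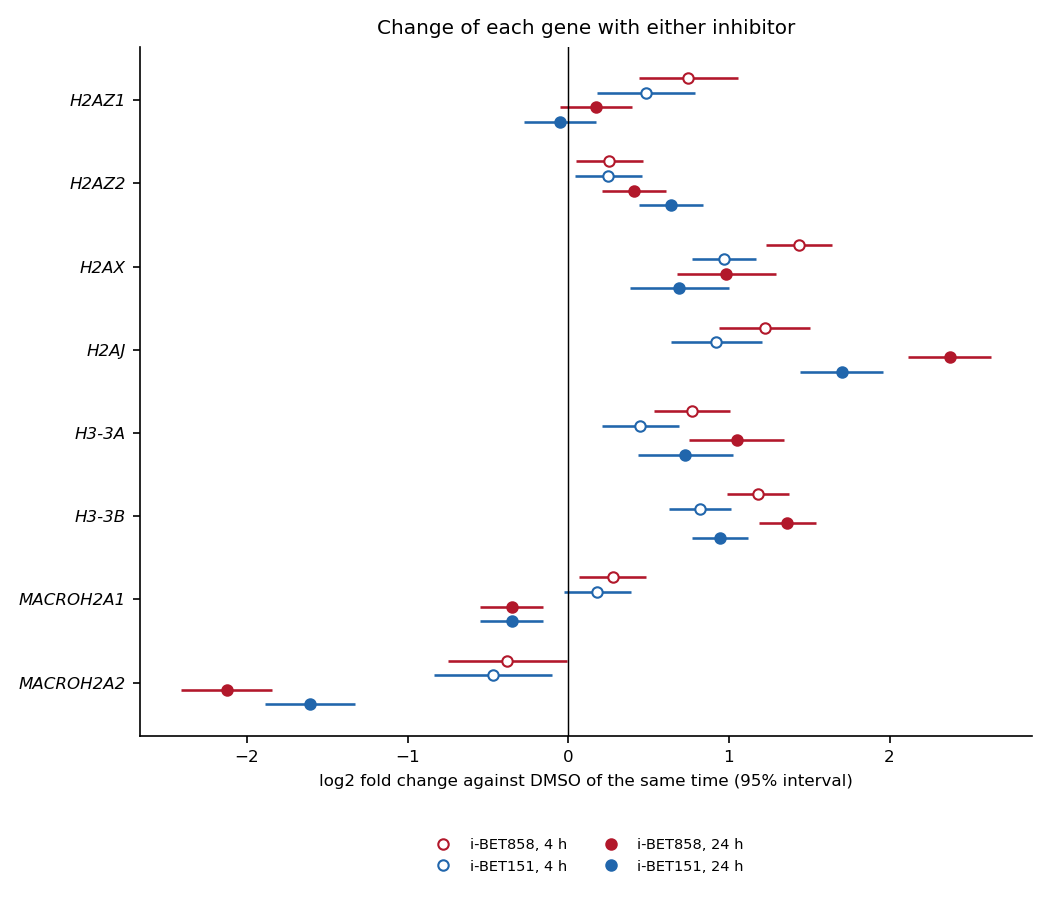
The log2 fold change of each gene (points) with its 95% interval (lines) is plotted for i-BET858 (red) and i-BET151 (blue) against DMSO of the same time, with open points for 4 h and filled points for 24 h. H2AJ with i-BET858 at 24 h lies farthest to the right (2.37) and MACROH2A2 farthest to the left (−2.13).

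H2AZ1 and H2AZ2 encode near-identical H2A.Z proteins. Whether the 2 genes differ in timing was not tested. H2AZ1 read 397, 373 and 338.5 CPM in DMSO replicates 1 to 3 at 4 h, 718, 633 and 506 after i-BET858 and 549, 556 and 446 after i-BET151. All treated libraries lay above all DMSO libraries. It thus rose by 0.75 ± 0.14 on the log2 scale (SE, 1.68-fold, edgeR adjusted p = 1.85e-03) with i-BET858 and by 0.48 ± 0.14 (1.40-fold, adjusted p = 0.0365) with i-BET151. The i-BET151 call was lost in 6 of the 9 fits that left out 1 library (all DMSO replicates, i-BET151 replicates 1 and 2, i-BET858 replicate 2), with adjusted p values up to 0.135, and under scaling by total library size (log2 0.43, adjusted p = 0.0898). At 24 h H2AZ1 read 403, 444 and 445 CPM in DMSO, 451, 538 and 507 after i-BET858 and 455, 426 and 388 after i-BET151. The i-BET151 libraries overlapped the DMSO libraries, and neither inhibitor gave a call (log2 fold change 0.17, adjusted p = 0.206, and −0.05, adjusted p = 0.755, edgeR).

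H2AZ2 was called at 24 h, and at 4 h its call depended on the fit. It read 142, 149.9 and 150.5 CPM in DMSO at 4 h, 179, 178 and 170.5 after i-BET858 and 172, 184 and 171 after i-BET151. Both treated groups lay above DMSO. The log2 fold changes of 0.26 ± 0.10 and 0.25 ± 0.10 were not called (edgeR adjusted p = 0.0619 and 0.103), but were called with the replicate block (adjusted p = 0.0118 and 0.0202) and with all 18 libraries in the fit (0.0301 and 0.0462). The i-BET858 value was also called by DESeq2 (log2 0.27, adjusted p = 0.0442), with DESeq2's size factors in edgeR (0.0487) and with at least 10 counts in every library (0.0374). Scaling by total library size lowered the 4 h estimates to 0.10 (i-BET858) and 0.19 (i-BET151), and neither was called. At 24 h H2AZ2 read 162, 175 and 164 CPM in DMSO, 223, 245 and 216 after i-BET858 and 279.8, 256 and 257 after i-BET151. The i-BET151 libraries were the highest of all 18. H2AZ2 rose by 0.41 ± 0.09 (1.33-fold, edgeR adjusted p = 4.28e-03) with i-BET858 and by 0.64 ± 0.09 (1.56-fold, adjusted p = 3.96e-04) with i-BET151. It was the 1 gene of the 8 that rose and had a larger estimate with i-BET151 than with i-BET858 at 24 h, by 0.23 on the log2 scale (95% interval 0.03 to 0.43), a difference that was not called (adjusted p = 0.354).

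The 2 genes were also compared as a ratio of counts within each library, which needs no scaling between libraries. In DMSO the H2AZ1 to H2AZ2 ratio was 2.25 to 2.79 at 4 h and 2.49 to 2.72 at 24 h. With i-BET858 it was 2.97 to 4.02 at 4 h and 2.02 to 2.35 at 24 h. i-BET151 gave 2.60 to 3.20 at 4 h and 1.51 to 1.67 at 24 h. Setting each treated library against each DMSO library at 4 h, the treated one was higher in 9 of 9 pairs for i-BET858 and in 8 for i-BET151, and in none at 24 h for either. The mean over both time points differed by 0.12 (exact permutation p = 0.42, adjusted over 6 ratio tests 0.42) and by −0.23 (exact p = 0.17, adjusted 0.204), a mean in which the opposite differences of 0.48 and −0.24 with i-BET858, and of 0.23 and −0.69 with i-BET151, cancel in part. A single time point, with 3 libraries against 3, was not tested, since exact permutation cannot go below 0.10 there.

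H2AX, whose product marks DNA breaks once phosphorylated, rose at both time points. At 4 h it read 256, 228 and 241 CPM in DMSO, 630.4, 661 and 667 after i-BET858 and 455, 491 and 477 after i-BET151. The 3 groups were fully separated. i-BET858 gave a 2.71-fold rise (log2 1.44 ± 0.09, edgeR adjusted p = 1.69e-06) and i-BET151 a 1.96-fold rise (log2 0.97 ± 0.09, adjusted p = 5.89e-05). The 24 h libraries read 275, 288 and 365 CPM in DMSO, 571, 642 and 676 after i-BET858 and 504, 449 and 569.9 after i-BET151. DMSO replicate 3 was the highest of its group yet below all treated libraries. The rise at 24 h was 1.98-fold (log2 0.98 ± 0.14, adjusted p = 2.51e-04) and 1.61-fold (log2 0.69 ± 0.14, adjusted p = 3.18e-03). These are mRNA levels and say nothing of the phosphorylated protein.

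H2AJ had the largest rise of the 8 at 24 h. At 4 h it read 30.9, 28.6 and 26.4 CPM in DMSO, 72.1, 70.0 and 57.8 after i-BET858 and 54.0, 55.9 and 53.2 after i-BET151. The 24 h libraries read 36.1, 33.4 and 39.6 in DMSO, 177, 187 and 217 after i-BET858 and 125, 115 and 119.9 after i-BET151. No groups overlapped within a time point. The rise with i-BET858 grew from 2.33-fold (log2 1.22 ± 0.13, edgeR adjusted p = 4.03e-05) to 5.18-fold (log2 2.37 ± 0.12, adjusted p = 5.77e-07), and that with i-BET151 from 1.90-fold (log2 0.92 ± 0.13, adjusted p = 6.60e-04) to 3.25-fold (log2 1.70 ± 0.12, adjusted p = 4.76e-06). Of 17157 genes, 324 had a larger estimated rise than H2AJ with i-BET858 at 24 h.

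H3-3A and H3-3B rose with both inhibitors at both time points. H3-3B was the most abundant of the 8 in CPM and read 1204.5, 1101 and 1048 in DMSO at 4 h, 2722, 2454 and 2402 after i-BET858 and 2082, 1939 and 1916 after i-BET151. At 24 h it read 977, 1046.5 and 987 CPM in DMSO, 2542, 2678.5 and 2737 after i-BET858 and 2018, 2035 and 1826 after i-BET151. The lowest i-BET858 library lay above the highest i-BET151 library at each time. The rise was 2.27-fold at 4 h (log2 1.18 ± 0.09, edgeR adjusted p = 4.27e-06) and 2.57-fold at 24 h (log2 1.36 ± 0.08, adjusted p = 1.04e-06) with i-BET858, and 1.77-fold (log2 0.82 ± 0.09, adjusted p = 1.39e-04) and 1.92-fold (log2 0.94 ± 0.08, adjusted p = 1.49e-05) with i-BET151.

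H3-3A read 305, 295 and 342 CPM in DMSO at 4 h, 473, 559 and 569 after i-BET858 and 403, 434 and 451 after i-BET151. By 24 h it read 311, 297 and 407 in DMSO, 678, 685 and 796 after i-BET858 and 571, 544 and 595.5 after i-BET151. Replicate 3 was the highest library of every group, and the treated libraries stayed above DMSO. H3-3A rose by 0.77 ± 0.11 (1.71-fold, edgeR adjusted p = 3.02e-04) and 1.05 ± 0.13 (2.07-fold, adjusted p = 1.26e-04) on the log2 scale with i-BET858 at 4 and 24 h. With i-BET151 it rose by 0.45 ± 0.11 (1.36-fold, adjusted p = 0.0161) and 0.73 ± 0.13 (1.66-fold, adjusted p = 1.78e-03). The 4 h call with i-BET151 was lost without DMSO replicate 1, DMSO replicate 2 or i-BET151 replicate 2 (adjusted p up to 0.0647).

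The balance of the 2 H3.3 genes moved towards H3-3B with i-BET858. The H3-3A to H3-3B ratio of counts was 0.253 to 0.326 in DMSO, 0.174 to 0.237 with i-BET858 and 0.194 to 0.236 with i-BET151 at 4 h. At 24 h it was 0.284 to 0.412, 0.256 to 0.291 and 0.267 to 0.326, so that the 24 h groups overlapped. Over both times the log2 ratio fell by 0.36 with i-BET858 (exact permutation p = 0.01, adjusted 0.02, but 0.05 without DMSO 4 h replicate 3 or i-BET858 24 h replicate 2) and differed by −0.29 with i-BET151 (exact p = 0.035, adjusted 0.0525, and 0.0469 when libraries were permuted within replicate numbers). The pair H3-3A and H3-3B has 47 annotated H3 pseudogenes, whose counts equalled 10.5 to 15.4% of the counts of the pair in a library. Of these, H3P6 on chromosome 2 held 99.1% and read 179 to 449 CPM. Its log2 fold changes of 0.80 and 1.03 with i-BET858 at 4 and 24 h stood beside 0.77 and 1.05 for H3-3A, and those of 0.52 and 0.77 with i-BET151 beside 0.45 and 0.73. How reads were split between these near-identical sequences was not tested. H3-3B took 70.8 to 85.2% of the pair's counts, so the uncertainty from H3P6 is larger for H3-3A, at 295 to 796 CPM, and for the ratio of the 2 genes than the share of the pair shows. The 8 H2A.Z pseudogenes amounted to 0.251 to 1.38% of H2AZ1 and H2AZ2.

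Both macroH2A genes fell at 24 h, and for MACROH2A2 a fall at 4 h was called in some fits only. MACROH2A2 read 80.7, 83.2 and 98.5 CPM in DMSO at 4 h, 69.8, 50.1 and 81.4 after i-BET858 and 59.4, 67.2 and 63.4 after i-BET151. The i-BET858 libraries overlapped DMSO through replicate 3, whereas the i-BET151 libraries did not. Neither was called (edgeR, log2 fold change −0.38 ± 0.17, adjusted p = 0.115, and −0.47 ± 0.17, adjusted p = 0.0851), and both were called with the replicate block (log2 −0.39, adjusted p = 0.0206, and −0.46, adjusted p = 0.0120). The i-BET858 value was also called without i-BET858 replicate 3 (log2 −0.54, adjusted p = 0.0288) but was −0.21 without i-BET858 replicate 2 (adjusted p = 0.327), and the i-BET151 value without i-BET858 replicate 2 or 3 (adjusted p from 0.0299). Scaling by total library size called both (adjusted p = 0.0241 and 0.0458). The i-BET858 value was called from replicates 1 and 2 only (0.0358), and the i-BET151 value with no filter (0.0285), all 18 libraries (0.0366) or only the 2 groups compared (0.0306). At 24 h MACROH2A2 read 101, 99.4 and 95.3 CPM in DMSO, 21.2, 24.2 and 24.0 after i-BET858 and 31.1, 28.5 and 38.6 after i-BET151. The 3 groups were fully separated, and the level fell 4.37-fold after i-BET858 (log2 −2.13 ± 0.13, adjusted p = 1.13e-06) and 3.05-fold after i-BET151 (log2 −1.61 ± 0.13, adjusted p = 9.62e-06).

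MACROH2A1 moved in both directions. It read 186, 198 and 185 CPM in DMSO at 4 h, 225, 229 and 233 after i-BET858 and 204, 217 and 225 after i-BET151. Neither treated group overlapped DMSO. The rise of 0.28 ± 0.09 on the log2 scale with i-BET858 was just called (1.21-fold, edgeR adjusted p = 0.0456), and this call was lost in 8 of the 9 fits that left out 1 library (all but i-BET151 replicate 3, adjusted p up to 0.123). It was lost too when libraries were scaled by their totals (log2 0.12, adjusted p = 0.395), with no filter on low counts (0.258), with only the 2 groups compared (0.0719) and with replicates 1 and 2 only (0.0886). The i-BET151 value of 0.18 ± 0.09 was not called (adjusted p = 0.235). At 24 h MACROH2A1 read 196, 200.4 and 209 CPM in DMSO, 159.5, 168 and 160.4 after i-BET858 and 169, 165 and 148 after i-BET151. It fell 1.28-fold with i-BET858 (log2 −0.35 ± 0.09, adjusted p = 8.86e-03) and by the same amount with i-BET151 (log2 −0.35 ± 0.09, adjusted p = 0.0113). The i-BET858 call at 24 h was lost with no filter on low counts (adjusted p = 0.0511).

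The MACROH2A1 to MACROH2A2 ratio of counts within a library was 1.88 to 2.37 in DMSO at 4 h and 1.95 to 2.20 at 24 h. i-BET858 gave 2.86 to 4.56 at 4 h and 6.68 to 7.50 at 24 h. i-BET151 gave 3.23 to 3.54 and 3.84 to 5.79. Every treated library lay above every DMSO library of its time. Over both times the log2 ratio was higher by 1.23 with i-BET858 (exact permutation p = 0.005, adjusted 0.015) and by 0.96 with i-BET151 (exact p = 0.005, adjusted 0.015), where 0.005 is the smallest p that the 400 arrangements can give. On the opposite strand, AIFM2 overlaps 6.6% of the exon bases of MACROH2A2, read 15.4 to 32.6 CPM and had log2 fold changes of −0.48 and −0.44 with i-BET858 at 4 and 24 h (edgeR adjusted p = 0.0108 at 24 h). Its i-BET151 values of −0.80 and −0.64 stood beside −0.47 and −1.61 for MACROH2A2. PITX1-AS1 overlaps 27.7% of the exon bases of MACROH2A1 and reached at most 0.291 CPM, and UNK overlaps 2.9% of those of H3-3B and read 25.4 to 58.1 CPM. The strand setting used in counting is not given in the sources used here, so reads in these overlaps cannot be told apart.

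**Figure D2:**
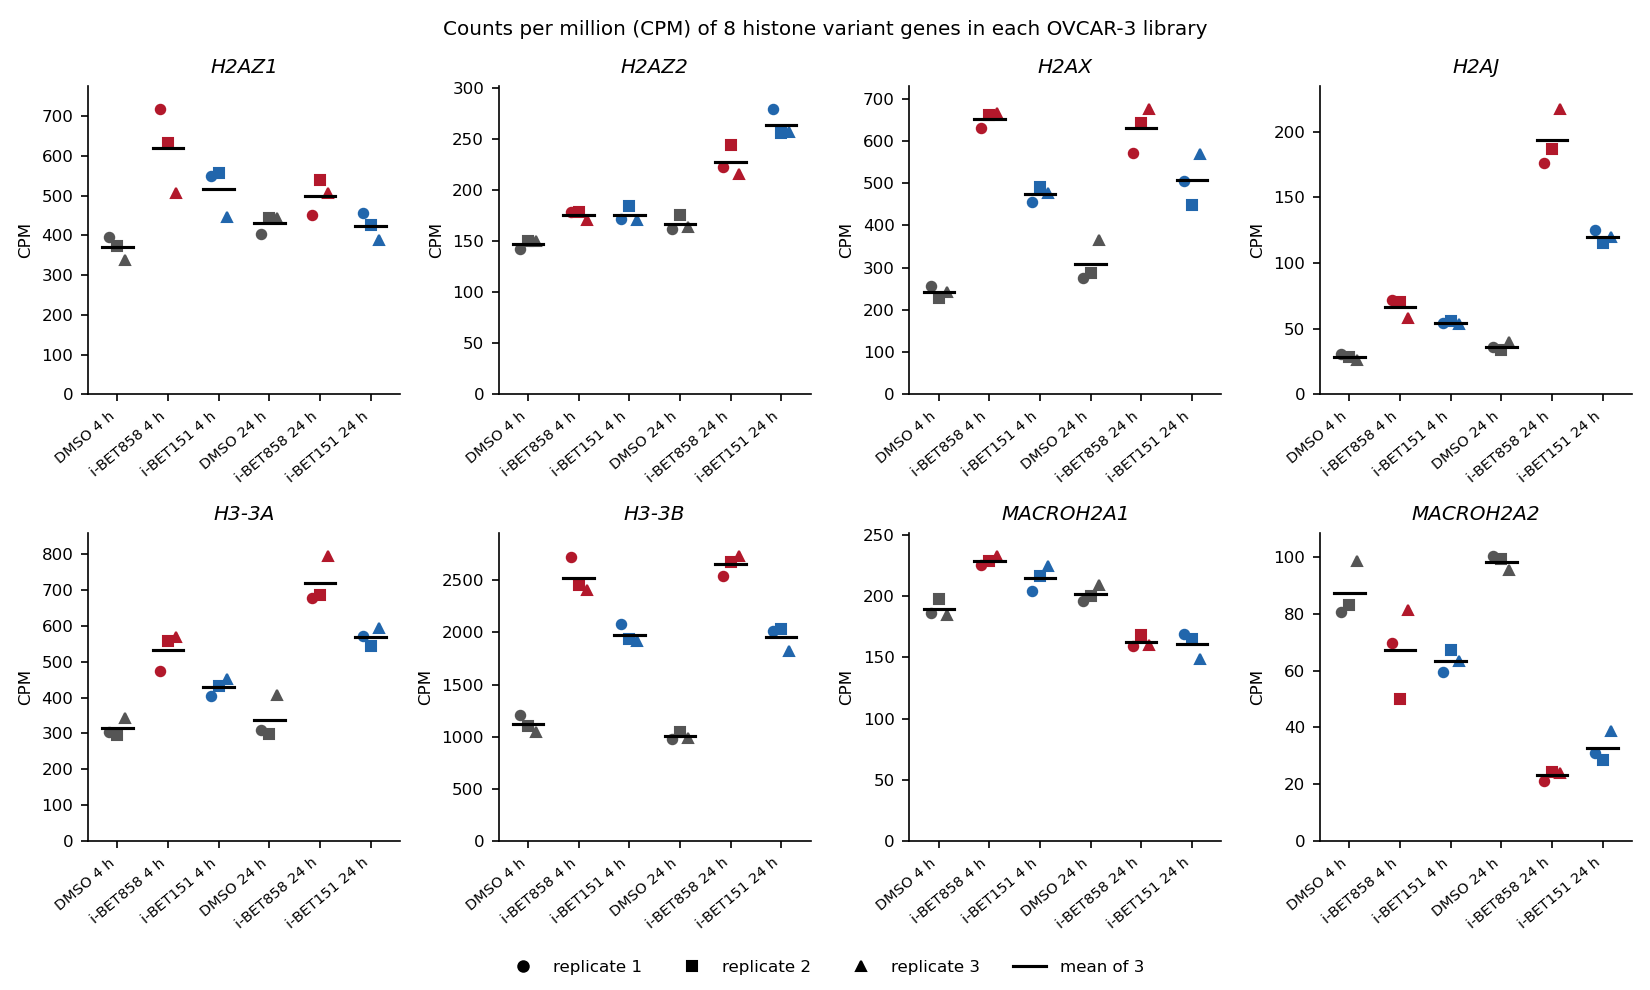
CPM in each of the 18 libraries is plotted for the 8 genes, with a circle, square or triangle for replicates 1, 2 and 3, grey for DMSO, red for i-BET858 and blue for i-BET151, and a bar for the mean of each group of 3. H2AJ climbs from 26.4 to 39.6 CPM in DMSO to 177 to 217 CPM with i-BET858 at 24 h, while MACROH2A2 drops to 21.2 to 24.2 CPM.

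**Figure D3:**
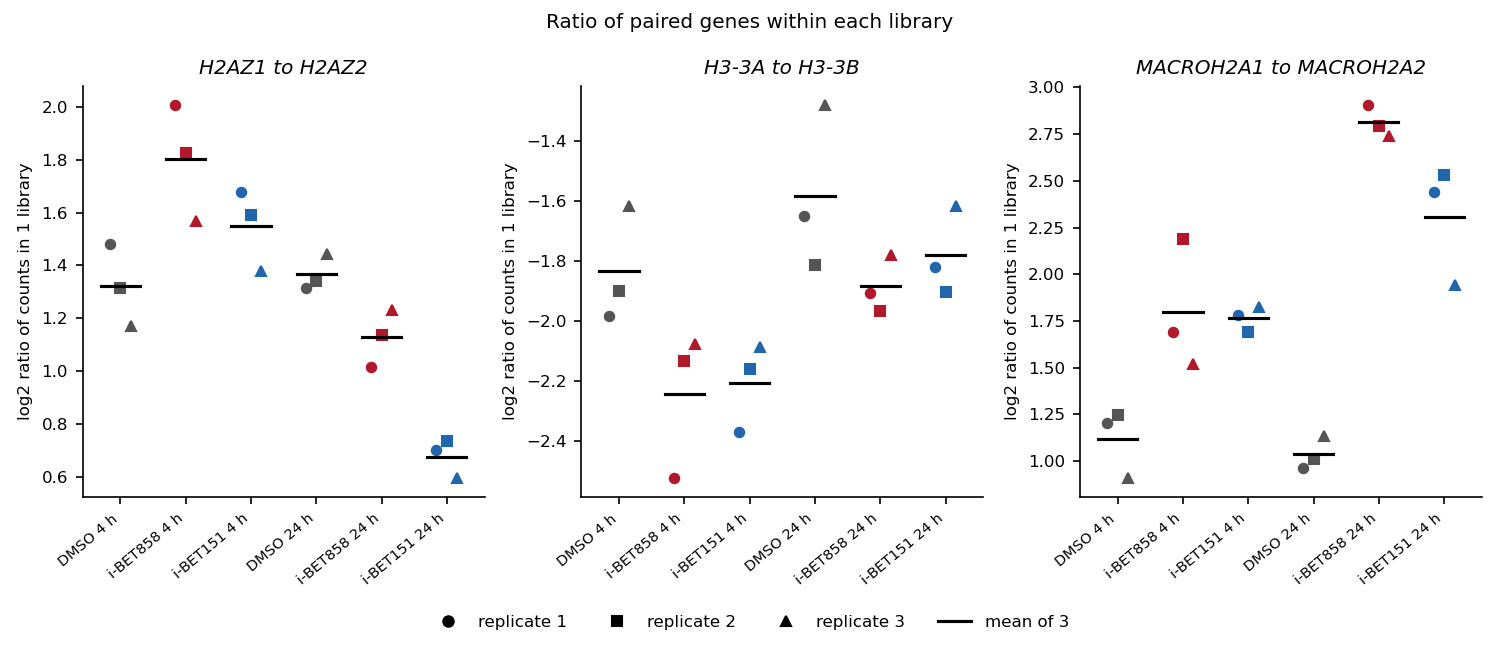
The log2 ratio of the counts of 2 related genes in the same library is plotted by group for H2AZ1 to H2AZ2, H3-3A to H3-3B and MACROH2A1 to MACROH2A2, with symbols for replicates and a bar for the mean of 3. The macroH2A ratio is above DMSO in every treated library, and the H2A.Z ratio is above DMSO at 4 h in 9 of 9 pairs of an i-BET858 and a DMSO library and below it at 24 h in all 9.

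The 2 inhibitors were then compared directly, at the same dose of 1 µM and the same time, in 16 tests (8 genes at 2 times), with p values adjusted over all genes tested. At 4 h, 1 of the 8 genes was called, H2AX, where 0.971% of all genes were called. H2AX was 1.38-fold higher with i-BET858 (log2 0.47, 95% interval 0.27 to 0.67, edgeR adjusted p = 0.0397) in 9 of 9 pairs of libraries. At 24 h, 1 of the 8 was called, H2AJ, where 0.21% of all genes were called. H2AJ was 1.59-fold higher with i-BET858 (log2 0.67, 95% interval 0.42 to 0.92, adjusted p = 0.0491). Both calls were marginal. That of H2AX was lost in all 9 fits that left out 1 library (adjusted p 0.0587 to 0.186), and that of H2AJ in 8 of 9 (all but DMSO replicate 3, adjusted p up to 0.215).

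With the replicate block, 4 of the 8 genes were called at each time, where 9.63% of all genes were called at 4 h and 4.37% at 24 h. At 4 h these were H2AX (adjusted p = 0.00118), H2AZ1 (0.0337), H3-3A (0.0121) and H3-3B (8.18e-04), all higher with i-BET858. At 24 h these were H2AJ (0.00304), H3-3A (0.0467) and H3-3B (0.00546), higher with i-BET858, and MACROH2A2 (0.0237), lower. Without the block, H3-3B differed by 0.36 at 4 h (95% interval 0.17 to 0.55, adjusted p = 0.0859) and by 0.42 at 24 h (0.25 to 0.59, adjusted p = 0.0692), and MACROH2A2 by −0.52 at 24 h (−0.80 to −0.24, adjusted p = 0.141). H3-3A then differed by 0.32 at both times (edgeR adjusted p = 0.226 and 0.387). H2AZ1 differed by 0.27 at 4 h (−0.04 to 0.57, adjusted p = 0.509), and by 0.15 to 0.39 without each library. For MACROH2A1 the interval of the difference was −0.11 to 0.30 at 4 h and −0.20 to 0.20 at 24 h, and for H2AZ2 at 4 h it was −0.20 to 0.22, with estimates of 0.10, 0.00018 and 0.01 that all turned negative under scaling by total library size. That scaling also moved the share of calls that were higher with i-BET858 over all genes from 42.5 to 16.6% at 4 h and from 44.4 to 26.8% at 24 h, and DESeq2's size factors moved the latter to 76.9% of 13 calls. The groups of the 2 inhibitors did not overlap for 5 of the 8 genes at 4 h and 6 at 24 h, against 16.8% and 19.5% of all genes.

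Whether an effect changed between 4 and 24 h was tested as a drug-by-time interaction over all 18 libraries. With i-BET858, 4 of the 8 genes were called, where 27.2% of 18154 genes were, 14.6% upwards and 12.6% downwards. The effect on H2AJ grew by 1.20 ± 0.16 (SE) on the log2 scale (edgeR adjusted p = 3.53e-05), whereas those on MACROH2A2 (−1.71 ± 0.21, adjusted p = 2.01e-05), MACROH2A1 (−0.58 ± 0.12, adjusted p = 1.34e-03) and H2AZ1 (−0.53 ± 0.18, adjusted p = 0.0311) moved downwards. The H2AZ1 call was lost in 8 of 18 fits that left out 1 library (DMSO 4 h replicates 2 and 3, i-BET858 4 h replicates 1 and 2, DMSO 24 h replicates 2 and 3, i-BET858 24 h replicates 1 and 3, adjusted p up to 0.101), with total library size (adjusted p = 0.0593) and with no filter on low counts (0.0501). For H2AZ2 the i-BET858 interaction of 0.19 was not called (adjusted p = 0.262). With i-BET151, 4 were called as well, where 13.8% of all genes were, 6.99% upwards and 6.82% downwards. These were H2AJ (0.80 ± 0.16, adjusted p = 3.01e-03), H2AZ2 (0.41 ± 0.12, adjusted p = 0.0310), MACROH2A1 (−0.51 ± 0.12, adjusted p = 8.08e-03) and MACROH2A2 (−1.12 ± 0.21, adjusted p = 2.17e-03). For H2AZ1 the i-BET151 interaction of −0.51 ± 0.18 was not called (edgeR adjusted p = 0.0628). The H2AZ2 call was lost in 10 of 18 fits that left out 1 library (every 4 h replicate of i-BET151, DMSO 4 h replicates 2 and 3, i-BET858 4 h replicate 1, DMSO 24 h replicates 1 and 3, i-BET151 24 h replicates 1 and 2, adjusted p up to 0.0905), and with no filter on low counts this call (adjusted p = 0.231) and that of MACROH2A1 (0.112) were lost. The block added H2AX (−0.40, adjusted p = 0.0156) and H3-3A (0.33, adjusted p = 0.0285) with i-BET858 and H2AZ1 (−0.51, adjusted p = 0.00981) with i-BET151, where 38.3% and 25.2% of all genes were called.

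**Figure D4:**
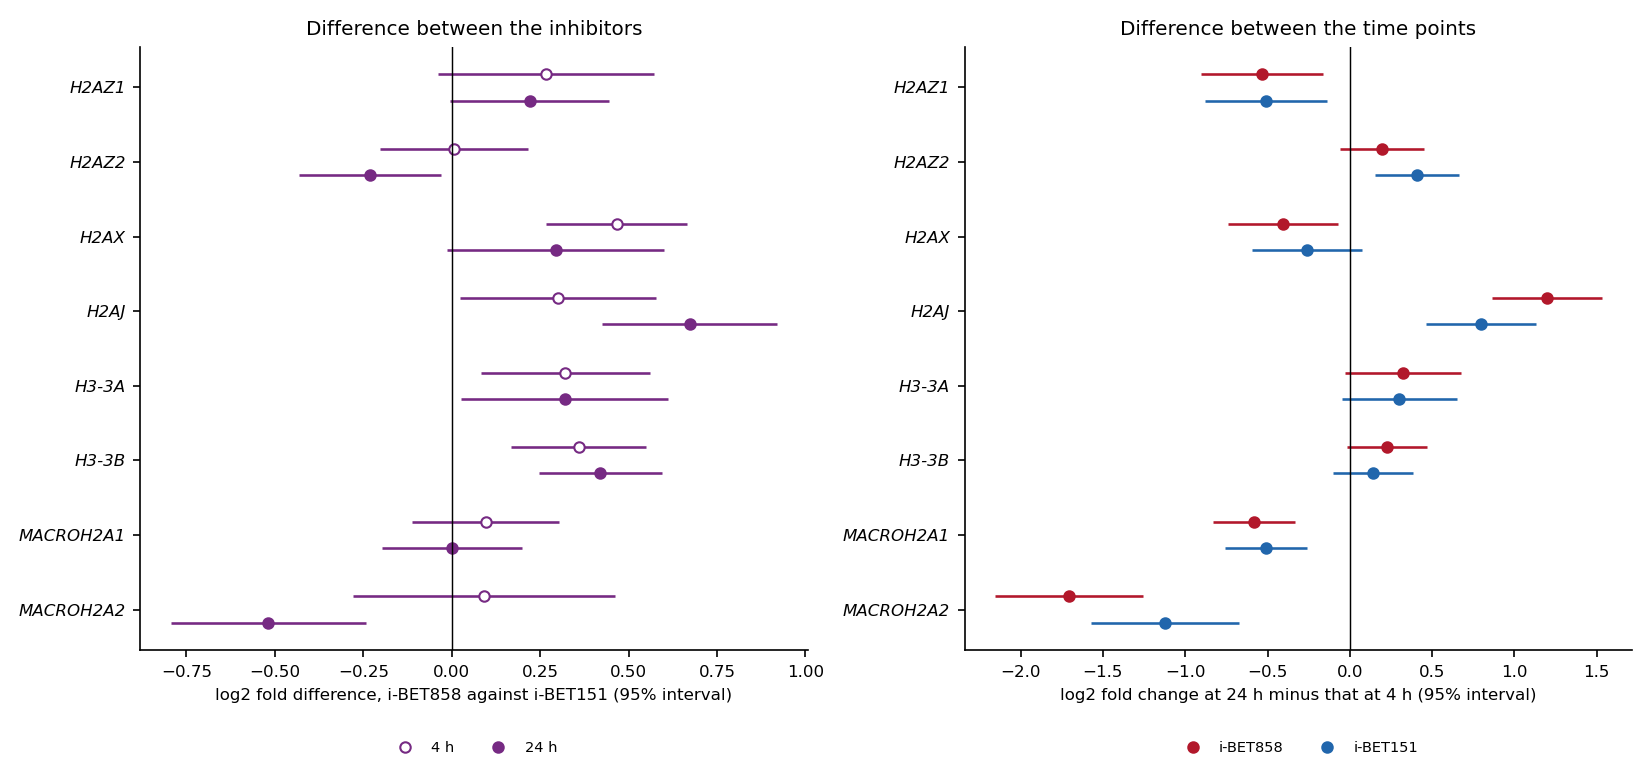
The left panel plots the log2 fold difference between i-BET858 and i-BET151 for each gene at 4 h (open) and 24 h (filled), and the right panel plots the log2 fold change against DMSO at 24 h minus that at 4 h for i-BET858 (red) and i-BET151 (blue), with 95% intervals as lines. At 24 h H2AJ (0.67) and MACROH2A2 (−0.52) lie farthest from 0 on the left, and the same genes (1.20 and −1.71 with i-BET858) on the right.

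Across the 18 libraries, the levels of H2AX and H3-3B (Pearson r = 0.93 of log2 CPM) and of H2AJ and H3-3A (0.94) varied together, and H2AJ and MACROH2A2 varied in opposite directions (−0.95). H2AZ1 and H2AZ2 did not (0.13). These values describe libraries that share their treatments, and no test is given. Over 18146 genes, the gene most like each of the 8 was PPIA for H2AZ1 (r = 0.98), PDK3 for H2AZ2 (0.95), TRIM28 for H2AX (0.98), H3C8, a clustered H3 gene, for H2AJ (0.99), GPAA1 for H3-3A (0.98), BAIAP2 for H3-3B (0.99), BUD23 for MACROH2A1 (0.96) and FCHO1 for MACROH2A2 (0.98). FCHO1 had log2 fold changes of −0.61 and −2.71 with i-BET858 at 4 and 24 h, and H3C8 of 1.45 and 3.18.

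Clustered genes for H2A and H3 were followed for comparison. Of 16 clustered H2A genes 14 matched a row and 9 passed the filter at each time (H2AC4 at 4 h only, H2AC14 at 24 h only). With i-BET858, 5 rose at 4 h and 6 at 24 h, with none falling, where 14.5% and 20.5% of all genes rose. H2AC6 rose from 90.0 to 203 CPM at 4 h (log2 1.17, edgeR adjusted p = 3.89e-03) and from 91.3 to 382 CPM at 24 h (2.03, adjusted p = 1.13e-06). H2AC13 rose by 2.50 at 4 h and H2AC11 by 3.41 at 24 h, from 10.2 to 111 CPM. H2AC21 rose from 0.231 to 3.02 and from 0.155 to 2.20 CPM. At these DMSO levels it passed the filter through treated libraries, so only a rise could be called for it. Of 13 clustered H3 genes 11 matched, 8 passed the filter at 4 h and 5 rose, and 9 passed at 24 h and 7 rose. These counts include H3C15 at both times and H3C14 at 24 h (from 0.0326 to 0.276 CPM), with DMSO means below the value of 3 counts. Both passed the filter through treated libraries, so only a rise could be called for them. H3C1 at 4 h and H3C12 at 24 h, also counted, had low DMSO means of 0.297 and 0.279 CPM, where a fall had little room. H3C10 rose by 3.29 on the log2 scale at 24 h, H3C13 by 2.53 at 4 h, and H3C15 from 0.0512 to 1.04 CPM at 4 h and from 0.0218 to 1.58 CPM at 24 h, with DMSO means below the value of 3 counts. With i-BET151, 5 and 6 clustered H2A genes and 3 and 4 clustered H3 genes rose at 4 and 24 h. None fell, where 7.81% and 17.2% of all genes rose. The H3 counts again include H3C15 at both times and H3C14 at 24 h (0.419 CPM), for which only a rise could be called. The H2A counts again include H2AC21 at both times, with the same limit. Clustered copies are near-identical and mostly lack poly-A tails, so single-copy values are uncertain in these libraries. Of 9 other variant genes outside the clusters only CENPA, the centromeric H3, and H3-5 passed the filter. CENPA rose by 0.57 (adjusted p = 0.0106) with i-BET858 at 24 h, and H3-5 by 1.05 and 1.71 at 4 and 24 h (adjusted p = 0.0324 and 4.96e-03). The level of H3-5 was low, from 2.27 to 4.69 CPM at 4 h and from 1.37 to 4.60 CPM at 24 h. How reads were split between H3-5 and other H3 genes was not tested.

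Genes for the machinery that places and removes H2A.Z were followed as a list of 21. With i-BET858, 9 fell and 1 rose at 4 h (median log2 fold change −0.62, beside 0.02 over all genes), and 6 fell and 1 rose at 24 h (median −0.18, beside −0.01). The share of all genes that fell was 16.3% at 4 h and 21.3% at 24 h, so the 24 h count of the list lies near the background. EPC2, a subunit of the p400/TIP60 complex, fell by 1.46 on the log2 scale (edgeR adjusted p = 1.31e-05) and KAT5, its acetyltransferase, by 1.67 (adjusted p = 7.50e-04) at 4 h, while ZNHIT1, a subunit of SRCAP, rose by 0.41 (adjusted p = 0.0144). At 24 h ANP32E, the chaperone that removes H2A.Z, fell from 288 to 99.9 CPM (log2 −1.56, adjusted p = 3.01e-06), EPC1 fell by 0.61 (adjusted p = 8.02e-03) and EP400 rose by 0.36 (adjusted p = 0.0427). With i-BET151, 5 fell and none rose at 4 h, and 3 fell and 1 rose at 24 h, where 8.43% and 16.6% of all genes fell.

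Of 10 genes for the chaperones of H3.3, 2 rose and 2 fell with i-BET858 at 4 h, and 4 rose and 1 fell at 24 h (median log2 fold changes 0.00 and 0.32). Over all genes 14.5% rose and 16.3% fell at 4 h, and 20.5% rose and 21.3% fell at 24 h. ASF1B, an H3-H4 chaperone, rose from 56.3 to 149 CPM at 4 h (log2 1.40, edgeR adjusted p = 2.58e-05), and its relative ASF1A rose at both times (0.90 and 0.76, adjusted p = 0.0275 and 0.0113). UBN2, a partner of HIRA, fell by 1.22 (adjusted p = 4.45e-04) at 4 h and rose by 0.58 (adjusted p = 0.0309) at 24 h. DAXX fell at both times (from 36.3 to 18.1 CPM and from 41.0 to 27.8 CPM, adjusted p = 7.59e-04 and 1.97e-03), whereas UBN1 rose by 0.73 at 24 h (adjusted p = 2.56e-04). With i-BET151, 1 rose and 1 fell at 4 h, and 3 rose and 1 fell at 24 h, beside 16.2% and 33.8% called over all genes.

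Of 17 genes for H2AX signalling and exchange, 2 rose and 6 fell with i-BET858 at 4 h, and 3 rose and 4 fell at 24 h (medians −0.38 and 0.00). Over all genes 14.5% rose and 16.3% fell at 4 h, and 20.5% and 21.3% at 24 h, so that the 24 h counts lie near the background. MCPH1, which binds γH2A.X, fell from 21.3 to 4.08 CPM at 4 h (log2 −2.38, edgeR adjusted p = 8.65e-06) and stayed low at 24 h (−1.75, adjusted p = 7.88e-05), and TP53BP1, a double-strand break reader, fell by 1.10 at 4 h (adjusted p = 1.99e-04). PPM1D, a phosphatase of γH2A.X, rose at both times (0.90 and 0.92, adjusted p = 1.81e-03 and 1.11e-04), as did RNF168, a ubiquitin ligase for H2A (0.86 and 0.62, adjusted p = 8.48e-04 and 3.32e-03). SSRP1, a subunit of the FACT chaperone, fell by 0.91 at 24 h (adjusted p = 5.35e-05). With i-BET151, 2 rose and 4 fell at 4 h (7.81% and 8.43% of all genes), and 3 rose and 2 fell at 24 h (17.2% and 16.6%). Of 4 partners of macroH2A, APLF rose at both times with i-BET858 (1.20 and 1.05, adjusted p = 0.0252 and 4.69e-03) at 1.80 to 5.74 CPM group means. PARP1 rose by 0.31 at 4 h (adjusted p = 0.0212) under the same inhibitor. For i-BET151, 1 of the 4 rose at each time. The shares of all genes that rose were 14.5% (4 h) and 20.5% (24 h) for i-BET858, beside 7.81% and 17.2% for i-BET151. A list of 4 genes is too short to be set apart from these shares.

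A list of 20 proliferation genes was read beside the histone genes. With i-BET858, 3 rose and 4 fell at 4 h, and 8 fell and none rose at 24 h (medians −0.07 and −0.17). At 4 h 14.5% of all genes rose and 16.3% fell, near the shares of the list, and at 24 h 20.5% rose and 21.3% fell. Among the 20 were CCNE2 (1.66) and CDC6 (0.62) up and CDT1 (−0.65) and MCM2 (−0.57) down at 4 h, and UNG (−1.19) and MCM5 (−1.10) down at 24 h. With i-BET151, 2 rose and 1 fell at 4 h, where 7.81% and 8.43% of all genes did, and 7 fell and none rose at 24 h, where 16.6% of all genes fell. Whether shifts of cells between cycle phases have a part in the histone values was not tested.

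**Figure D5:**
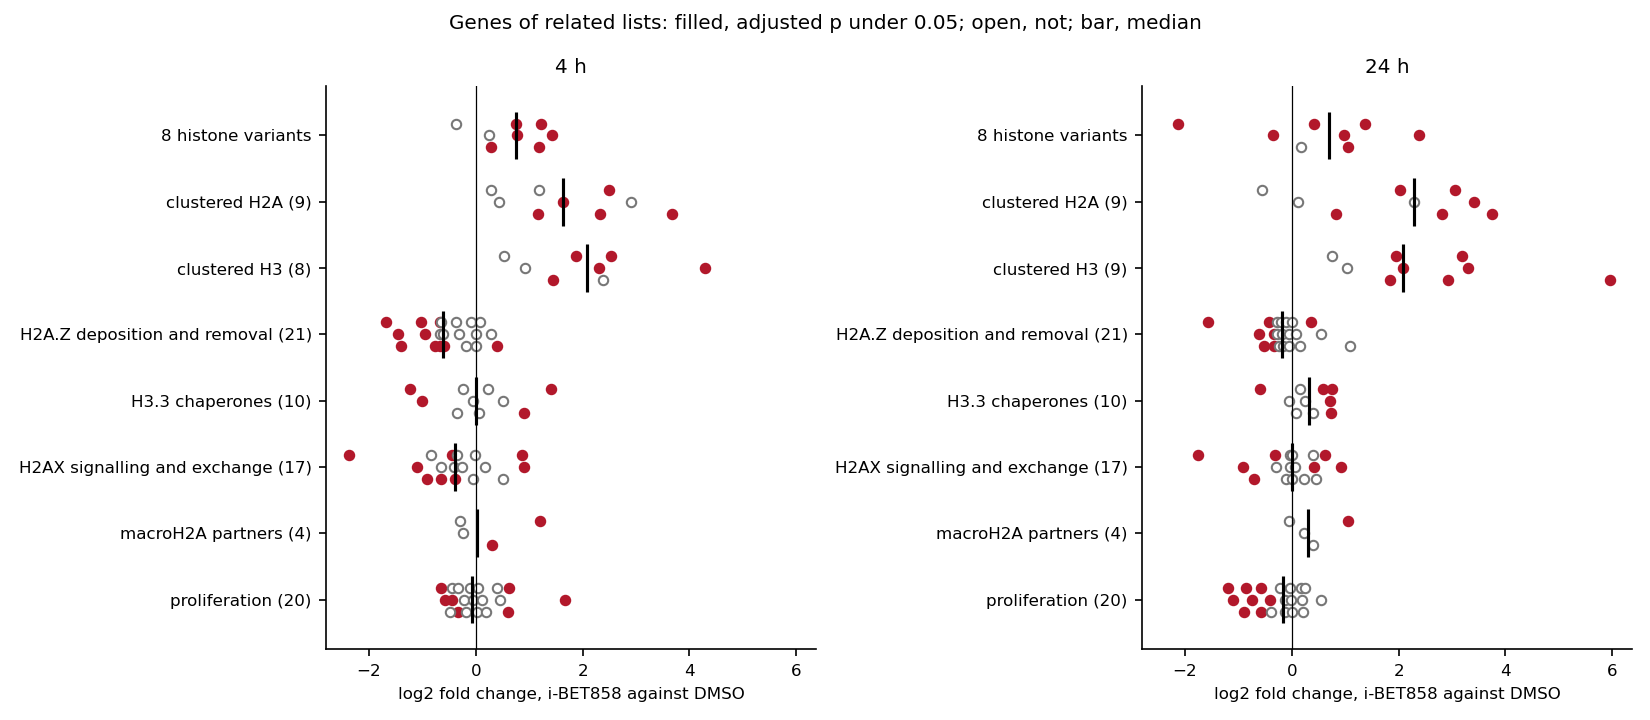
The log2 fold change with i-BET858 against DMSO is plotted at 4 h (left) and 24 h (right) for each tested gene of the 8 histone variants and of 7 related lists, whose number of tested genes is in parentheses, with filled points for adjusted p under 0.05, open points otherwise and a bar at the median. Clustered H2A and H3 genes have medians of 1.63 and 2.09 at 4 h and 2.29 and 2.08 at 24 h, where H2AJ, at 2.37, lies within their spread.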

How the data were processed

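Libraries of poly-A-selected RNA from OVCAR-3 cells had been read in paired-end mode on a NovaSeq. According to the methods of the study, the authors checked reads with FastQC, aligned them to GRCh38/hg38 with STAR and counted them on genes with STAR's gene counting. The deposited values are raw counts per gene, 1 column per library, with no normalization and no pooling. Versions of STAR, the annotation and the strand setting are not given in the sources used here. Columns carry treatment and replicate, and the time was taken from the name of each table. Of 58825 identifiers, 58472 (99.4%) matched GENCODE 44, which gave symbols and positions on GRCh38. Promoter windows came from RefSeq (GRCh38.p14), where all 8 genes matched.

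Quasi-likelihood models of edgeR 4.0.16 (R 4.3.3), with TMM factors and the filter of filterByExpr, were fitted for each time point (9 libraries, 3 groups), and interactions and DMSO over time with all 18 libraries. p values were adjusted by the Benjamini-Hochberg method over all genes tested, and a gene was called at an adjusted p under 0.05. The study's own tool, DESeq2 (here 1.42.0), was an alternative, beside DESeq2's size factors, total library size, no filter, at least 10 counts in every library, a replicate block, each library left out, replicates 1 and 2 only, other sets of libraries in the fit and a 2-fold rule. Added after seeing the data were per-kilobase levels over all exons and each same-number pair by itself. Ratios of counts (0.5 added to each) were tested by exact two-sided permutation within time points. The replicate block takes libraries with the same number as paired, which the labels do not state. Deviations from group means of libraries with the same number correlated at 0.125 to 0.344 at 4 h and 0.145 to 0.330 at 24 h. All were above 0.1. Libraries with different numbers correlated at −0.311 to 0.216 and −0.304 to 0.285, so the ranges overlap. Their medians were −0.204 and −0.232, beside 0.274 and 0.263 for the same number. Deviations sum to 0 within a group, so these 2 sets of values are not independent and cannot settle the pairing. p values measure the spread between these cultures of 1 line. The edgeR script was tested on simulated data.

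A count of 3, taken as the floor, corresponds to 0.0653 to 0.109 CPM. The genes and lists were chosen with earlier results of these data known. Besides the 8 genes, the text names for each the gene most correlated with it, and from each list up to 2 genes that rose and 2 that fell most among those called with i-BET858 at each time. H2AC6, H3P6, AIFM2, UNK and PITX1-AS1 were named after their values were seen.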

Additional observations from a re-analysis of the deposited data

Results flagged for a closer look

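The effect of an inhibitor differed between 4 and 24 h by the interaction test (edgeR, adjusted p under 0.05) for 8 combinations of gene and inhibitor, given as the log2 fold change at 24 h minus that at 4 h. With i-BET858 these were H2AZ1 (−0.53), H2AJ (1.20), MACROH2A1 (−0.58) and MACROH2A2 (−1.71). With i-BET151 they were H2AZ2 (0.41), H2AJ (0.80), MACROH2A1 (−0.51) and MACROH2A2 (−1.12). For MACROH2A1 the sign of the estimate turned between the time points with both inhibitors. H2AZ1 with i-BET858 and H2AZ2 with i-BET151 lost the call in 8 and 10 of the 18 fits without 1 library, and the other 6 kept it in all 18. No group was large enough for a check of single outlying samples.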

How the results depend on the processing

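Against DMSO, no estimate changed direction under the alternatives in normalization, filter, tool and design that were run, except for H2AZ1 with i-BET151 at 24 h, which read 0.018 on the log2 scale from replicates 1 and 2 only and −0.11 to 0.00041 without each library. Counts of genes called against DMSO without each library were 5 to 6 (i-BET858, 4 h), 3 to 6 (i-BET151, 4 h, lowest without DMSO replicate 1 or 2 or i-BET151 replicate 2) and 7 for both at 24 h. With a fold of at least 2 as well, the counts against DMSO were 3 and 0 at 4 h and 4 and 2 at 24 h (i-BET858, i-BET151), 0 and 0 between the inhibitors, and 2 and 1 for the interactions.

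Between the inhibitors, 1 gene was called at each time. At 4 h this became 2 with all 18 libraries in the fit, 4 with the replicate block, and 0 with no filter, with only the 2 groups compared, with total library size, and without each library. At 24 h it became 2 with all 18 libraries, 3 with DESeq2, 3 with no filter, 4 with the block, 5 with replicates 1 and 2 only, 0 with DESeq2's size factors or only the 2 groups compared, and 0 to 2 without each library. Of all genes, 0.971% at 4 h and 0.21% at 24 h were called in the main fits, and 9.63% and 4.37% with the block. Shares of all genes under the other settings are not given here, so those counts cannot be set against a background. The sign turned for H2AZ2 at 4 h with total library size (−0.094), no filter (−0.0051), all 18 libraries (−0.00031), the 2 groups alone (−0.0026) and single libraries left out (−0.017 to 0.042). It turned for MACROH2A1 with total library size (−0.0042 at 4 h, −0.056 at 24 h), and at 24 h with at least 10 counts (−0.00028), replicates 1 and 2 only (−0.020) and single libraries left out (−0.033 to 0.052). For MACROH2A2 at 4 h it turned with total library size (−0.014), replicates 1 and 2 only (−0.070) and single libraries left out (−0.073 to 0.26). The causes were not tested. DESeq2 made 5 more calls of single genes and lost none, namely H2AZ2 with i-BET858 at 4 h, H3-3B and MACROH2A2 between the inhibitors at 24 h, and the interactions of H2AX with i-BET858 and of H2AZ1 with i-BET151. Without DMSO 24 h replicate 3, H3-3B was called between the inhibitors at 24 h (adjusted p = 0.0370) and H3-3A in both interactions (0.0211 and 0.0488), and without DMSO 24 h replicate 1 H2AX in the i-BET858 interaction (0.0382). The H2AZ1 interaction with i-BET151 was called without i-BET858 4 h replicate 1 or 3 or i-BET151 4 h replicate 3. In edgeR it was also called with DESeq2's size factors (adjusted p = 0.0456), at least 10 counts in every library (0.0306) and replicates 1 and 2 only (0.0164).

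The i-BET151 interaction count was 2 with no filter, and both interaction counts were 3 to 5 without each library. In DMSO over time, the replicate block called 1 gene, and H3-3A read −0.044 to 0.19 without each library. The H3-3A to H3-3B ratio differed by −0.30 with i-BET858 for replicates 1 and 2 only, and the macroH2A ratio by 1.29 and 1.01, none of which could pass in so few libraries (smallest adjusted p 0.0833). Without each library the H3-3 ratio differed by −0.42 to −0.28 (i-BET858) and −0.34 to −0.21 (i-BET151), the former losing its call without DMSO 4 h replicate 3 or i-BET858 24 h replicate 2 (exact adjusted p = 0.05 in both) and the latter gaining one without DMSO 4 h replicate 1, DMSO 24 h replicate 2 or i-BET151 24 h replicate 3. The replicate block called the i-BET151 difference in the H3-3 ratio (−0.29, exact adjusted p = 0.0469). Calls that the block changed are given beside each result, and it changed no other call. All 8 genes read above the floor, with a lowest value of 21.2 CPM against a floor of at most 0.109 CPM. Whether depth limited the calls was not tested.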
